A study of Mus musculus with 9 samples.

Results

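Ephrins, Slits and netrins are guidance cues, and Eph, Robo, Dcc, Neo1 and Unc5 proteins are their receptors. The genes of these families were followed in sorted limb tendon cells by their symbols alone: Efna and Efnb genes with a number, Slit1 to Slit3, Ntn1, Ntn3, Ntn4, Ntng1 and Ntng2 as ligands (16 genes), and Epha and Ephb genes with a number, Robo1 to Robo4, Unc5a to Unc5d, Dcc and Neo1 as receptors (23 genes). That gave 39 of the 18194 genes measured. Of the 39, 29 had enough signal to be tested, 13 ligands and 16 receptors.

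Ephrins are held on the cell surface, the A class by a lipid anchor and the B class by a membrane-spanning segment, and bind Eph receptor tyrosine kinases on neighbouring cells, often causing the cells to part. Slits are secreted and signal through Robo receptors, while the laminin-related netrins bind Dcc, Neo1 and the Unc5 receptors, and the lipid-anchored netrin-G proteins bind other partners at synapses. In the limb these systems are best known for steering motor axons and sorting mesenchymal cells, and in flies Slit made by tendon cells guides muscle to its attachment site.

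The samples were forelimb cells of mouse embryos that carried Scx-GFP, a green fluorescent reporter of the tendon transcription factor gene Scx, at 3 stages named for the day of development, E11.5, E12.5 or E14.5. All 3 groups carried the reporter and differed by stage; no further allele or agent is named. Limbs were dispersed with trypsin and GFP-positive cells sorted on 1 of 2 machines, with no record of the machine per sample, and amplified total RNA was read on Affymetrix mouse arrays, 3 per stage, with the letters A, B and C. Separate litters are not mentioned, so p-values measure the spread between these samples, which may be technical.

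Values are MAS5 signals on a linear scale, scaled by the authors to 1 mean per array, and changes are differences of mean log2 signal with their standard error (SE). Genes were compared between stages with limma, and called at a Benjamini-Hochberg adjusted p under 0.05 over all 11576 genes tested. Array medians lay between 68.7 and 118. All 11 tendon markers were measured, and their summed signal was 44500 to 47736 at E11.5, 54217 to 62434 at E12.5 and 103202 to 130870 at E14.5. Scx itself was the 1 tendon marker that fell between E11.5 and E14.5, while 9 rose (90.9% called, against 40.5% of all tested genes). Array A had the lowest median signal of its stage at all 3 stages. In 8 of the 29 tested guidance genes (27.6%: Dcc, Epha3, Epha4, Ephb1, Neo1, Robo1, Robo2 and Unc5d) array A was the lowest of its stage at all 3 stages, against 10.2% of all tested genes, and in 2 (6.9%: Efna1 and Efna2) it was the highest, as in 1446 of the 11576 tested genes.

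Between E11.5 and E14.5, 11 of the 29 tested guidance genes rose and 3 fell. This was 48.3% of them, near the 40.5% called over all tested genes (22.9% higher and 17.7% lower), so the count is not a result about these families. In bulk samples, fewer cells of a type and less RNA per cell cannot be told apart, for these and all genes that follow. The genes that rose were the ligand genes Efna3, Efna5, Efnb2, Slit2, Ntn4 and Ntng1 and the receptor genes Epha3, Ephb1, Dcc, Neo1 and Unc5d. Those that fell were the ephrin genes Efna2 and Efna4 and the receptor gene Unc5b. The median log2 change of the 29 was 0.22, against 0.0034 over all tested genes. In 11 genes the 3 arrays of E14.5 all lay above those of E11.5 and in 4 all below, where 51.4% of all tested genes had arrays that did not overlap (27.3% higher and 24.1% lower). Without the letter A arrays 9 genes were called, 8 higher and 1 lower, the calls of Efna2, Efna3, Efna4, Neo1 and Ntn4 being lost. After each array was centred on its median, which moved the median change of all tested genes to -0.20, 7 were called, 5 higher and 2 lower: Robo2 was called as lower, and the calls of Efna2, Efna3, Efna4, Efna5, Efnb2, Ephb1, Neo1 and Ntn4 were lost.

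Fewer guidance genes were called in the single steps. Between E12.5 and E14.5, 4 genes rose (Efna5, Slit2, Ntn4 and Ntng1) and 2 fell (Efna4 and Unc5b), 20.7% of the 29 against 22% of all tested genes (12.6% higher and 9.32% lower). Their median change was 0.18, against -0.05 over all tested genes. Between E11.5 and E12.5 only Unc5d was called, 3.45% against 3.55% (3.11% higher), with a median of 0.10 against 0.04. The letters were not used in the fit that gave these calls. With the letter as a blocking factor Dcc (adjusted p = 0.0394) and Ntng1 (0.0251) were called as higher at E12.5 too. limma's F-test over the 3 stages called 10 of the 29, against 33.7% of all tested genes. Without the letter A arrays the calls between E12.5 and E14.5 were those of Ntng1 and Unc5b. Median centring left 1 call between E12.5 and E14.5, that of Ntng1, and moved the split of all called genes in that comparison from 1463 higher and 1079 lower to 631 and 281.

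**Figure D1:**
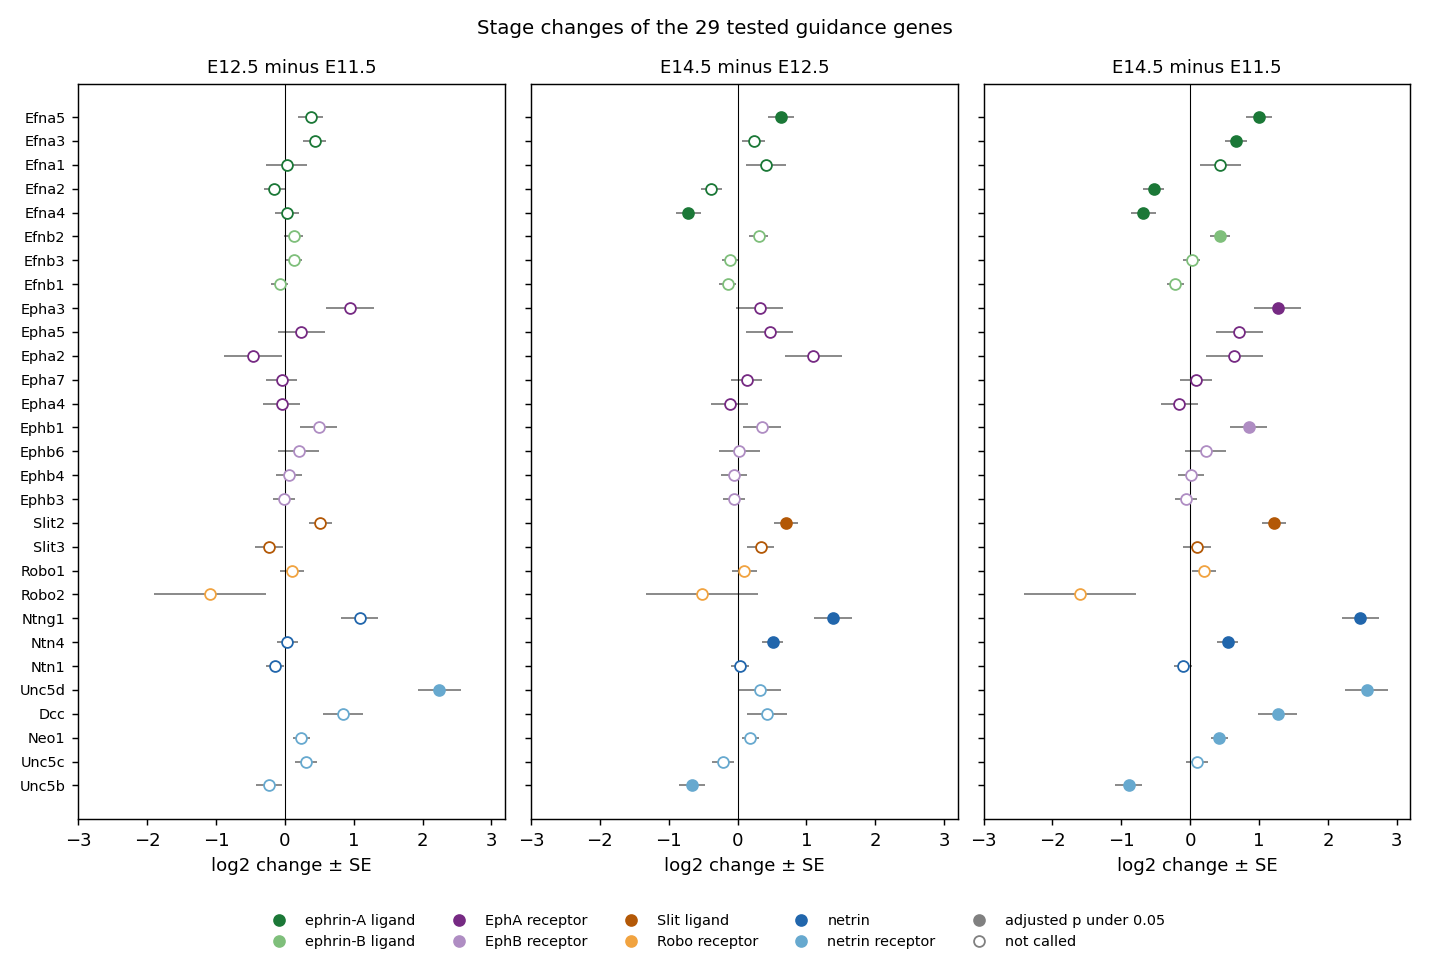
Change of the 29 tested guidance genes in the 3 stage comparisons, on the horizontal axis as log2 change with bars of 1 SE, grouped by role; filled points are called at an adjusted p under 0.05. Unc5d is the 1 filled point in the E12.5 minus E11.5 panel, and 14 points are filled in the E14.5 minus E11.5 panel, with Unc5d (2.56) and Ntng1 (2.47) farthest to the right.

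Among the netrin receptor genes, Unc5d had the largest rise. Its lead over the netrin gene Ntng1 among all tested guidance genes, 2.56 against 2.47 from E11.5 to E14.5, was within their SE and turned to 1.92 against 2.37 under a higher floor. It encodes a receptor of the Unc5 class, which turns netrin into a repellent signal and also binds the adhesion proteins of the Flrt family. In the order A, B, C its signal was 45.0, 58.1 and 74.5 at E11.5, 176, 313 and 374 at E12.5, and 266, 328 and 463 at E14.5. All arrays of the later stages lay above all of E11.5, and the E12.5 and E14.5 arrays overlapped. Unc5d rose by 2.24 ± 0.31 on the log2 scale between E11.5 and E12.5 (adjusted p = 0.00701, limma) and by 2.56 ± 0.31 over the whole interval (adjusted p = 0.00024). From E12.5 to E14.5 the change was 0.32 ± 0.31 (adjusted p = 0.492). No E11.5 array reached the signal of 90.6 used as a filter, so this gene was tested on the strength of its E12.5 and E14.5 arrays and had to differ. Both calls held under all 18 alternative settings, with a change of 1.60 for E12.5 under the higher floor. With no filter the call for E12.5 was close to the threshold (adjusted p = 0.0475, limma).

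Dcc encodes the receptor through which netrin attracts axons. Its signal was 157, 167 and 279 at E11.5, 255, 429 and 389 at E12.5, and 368, 466 and 603 at E14.5. Every E14.5 array lay above every E11.5 array, while those of E12.5 overlapped both. Dcc rose by 1.27 ± 0.28 from E11.5 to E14.5 (adjusted p = 0.00633). With the mean of its probe sets the change was 0.82 and was not called (adjusted p = 0.138).

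Neo1 encodes neogenin, a relative of Dcc that binds netrins and the repulsive guidance molecules. Its signal went from 3248, 3831 and 3388 at E11.5 through 3834, 4279 and 4241 at E12.5 to 4571, 4833 and 4618 at E14.5. The outer stages did not overlap, but the rise was small, 0.43 ± 0.12 (adjusted p = 0.020). It was not called without array A or C of E11.5 or B of E14.5 (adjusted p up to 0.0709) or without the letter A arrays (0.102). With the mean of its 5 probe sets the change was -0.09 (adjusted p = 0.876). Of the others, the one with the highest signal (means of 1392 at E11.5 and 1953 at E14.5) changed by 0.49 ± 0.20. The weaker ones changed by -1.27 ± 1.01, -0.11 ± 0.41 and 0.02 ± 0.62, and none of these others was called.

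Unc5b, a netrin receptor gene with a known role in blood vessels, went the other way. Its signal was 710.3, 610.2 and 723 at E11.5, 621, 546 and 569.8 at E12.5, and 482, 360.1 and 281 at E14.5. The E14.5 arrays were all lower than those of both earlier stages. Unc5b fell by 0.90 on the log2 scale from E11.5 (SE 0.19, adjusted p = 0.00502), a call that held under all 18 alternatives, and by 0.66 from E12.5 (SE 0.19, adjusted p = 0.0352). The second call was lost without any 1 of the E12.5 arrays or array B or C of E14.5 (adjusted p up to 0.107), with median centring (0.208) and with no filter (0.0694). Unc5c, another receptor of the class, had means of 1022 ± 159.5, 1258 ± 148 and 1085 ± 58.2 (SD, n = 3) in stage order, a change of 0.10 ± 0.15 over the interval (adjusted p = 0.651). Unc5a did not exceed 57.7 in any array and was not tested.

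Among the netrins, Ntng1 had the largest rise. It encodes netrin-G1, a membrane-anchored relative that does not bind Dcc or the Unc5 receptors. Its signal was 73.8, 133 and 148 at E11.5, 179, 255 and 303 at E12.5, and 617, 657 and 610.5 at E14.5. The 3 stages did not overlap, and the E14.5 arrays lay close together. Ntng1 rose by 2.47 ± 0.27 over the whole interval (adjusted p = 0.00013) and by 1.39 ± 0.27 from E12.5 to E14.5 (adjusted p = 0.00694), and both calls held under all 18 alternatives. The earlier step, 1.09 ± 0.27, missed the threshold (adjusted p = 0.0658) but was called in the blocked fit, as given above, and without the letter A arrays. A higher floor, quantile normalization and the trended and robust prior also gave the call. With the mean of its 4 probe sets the step was 0.42 and was not called (adjusted p = 0.609). With that mean the rise over the interval was 1.59.

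Ntn4 encodes netrin-4, a basement membrane protein that binds laminin. Its signal was 189, 232 and 266 at E11.5, 225, 256 and 218 at E12.5, and 315, 335 and 343 at E14.5. The earlier stages overlapped and E14.5 stood above both. Ntn4 rose by 0.55 ± 0.15 from E11.5 (adjusted p = 0.0170) and by 0.51 ± 0.15 from E12.5 (adjusted p = 0.0384). The former call was lost without array A of E11.5 or C of E14.5 (adjusted p up to 0.0610), the latter without any 1 of the 6 arrays compared (up to 0.115) and with the trended and robust prior (0.0683). Ntn1, the best known member and a secreted axon guidance cue, had means of 1719.8 ± 148, 1563 ± 130.1 and 1601 ± 88.6 (SD, n = 3), with a change of -0.10 ± 0.13 over the interval (adjusted p = 0.569). Ntn3 and Ntng2 were not tested, with highest signals of 93.3 and 63.9.

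**Figure D2:**
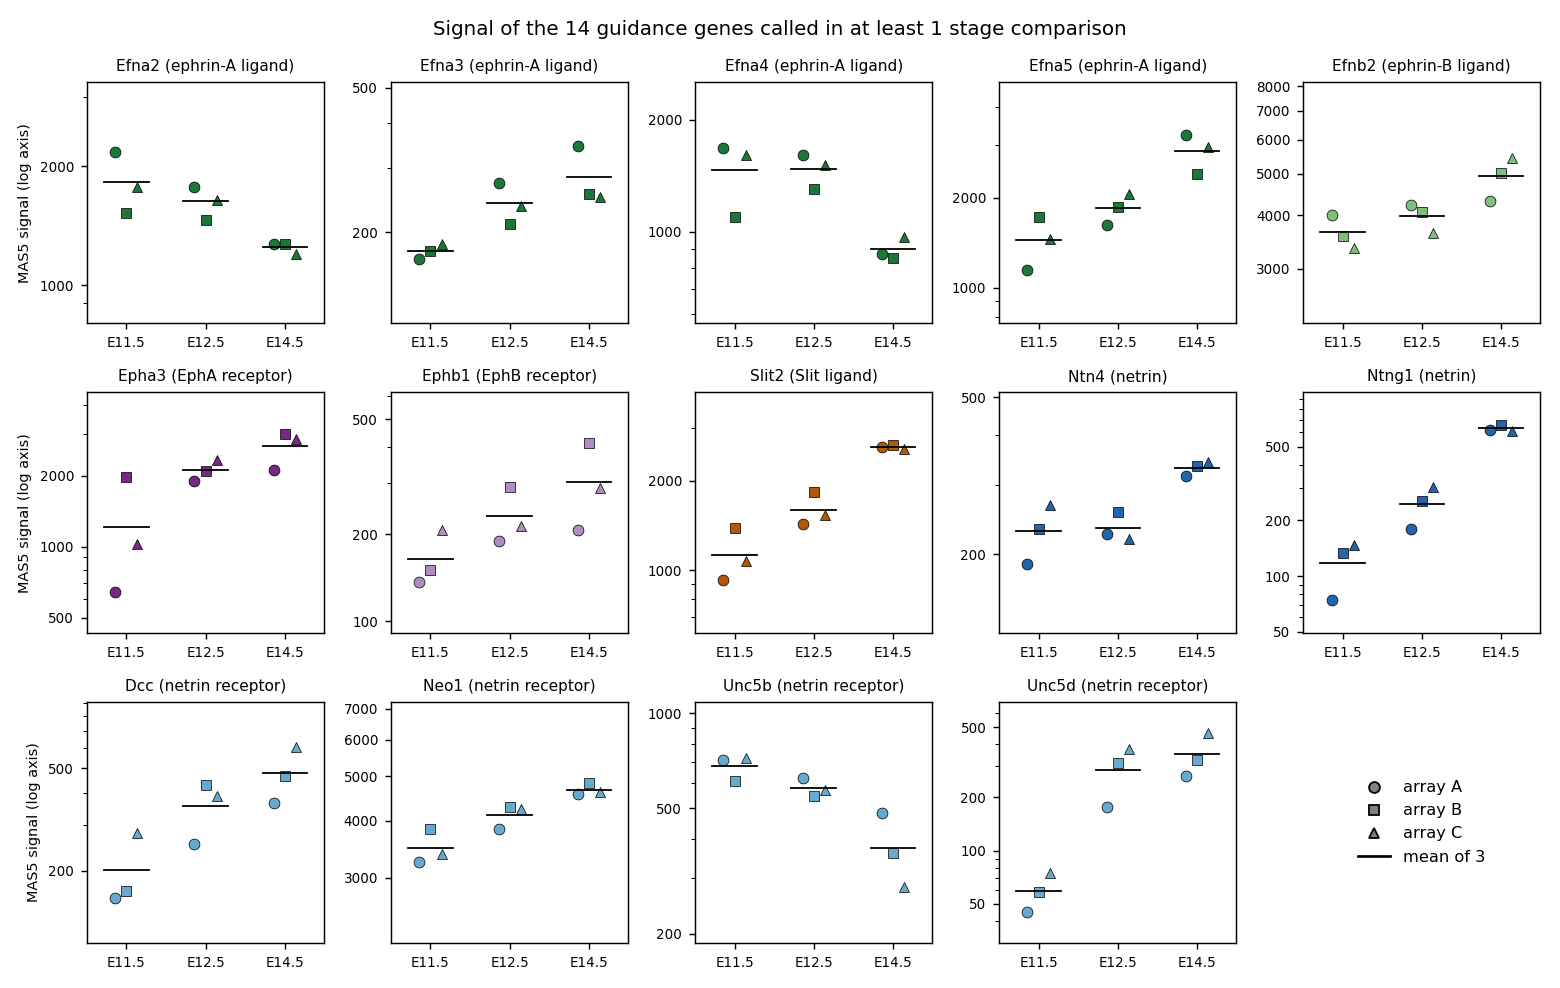
MAS5 signal (log axis) of the 14 guidance genes called in at least 1 stage comparison, by stage; each symbol is 1 array (circle A, square B, triangle C) and each line the mean of 3. Ntng1 climbs from 73.8 to 148 at E11.5 to 610.5 to 657 at E14.5, Unc5d moves mainly between E11.5 and E12.5, and Efna2, Efna4 and Unc5b are lower at E14.5.

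Of the 5 tested ephrin-A ligand genes, 2 rose (Efna3 and Efna5) and 2 fell (Efna2 and Efna4) between E11.5 and E14.5, where 22.9% of all tested genes rose and 17.7% fell. Efna1, Efna3 and Efna4 are consecutive protein-coding genes on chromosome 3 in the RefSeq table of mouse genes (GRCm38.p6), and of these neighbours Efna3 rose and Efna4 fell. The 250 bases before the first listed start of each are shown because the pair moved in opposite directions. Efna3 had 2 listed starts and Efna4 1, and the other start of Efna3 was not read. Capitals mark the letters CANNTG, the E-box bound by basic helix-loop-helix factors such as scleraxis, on either strand. They also mark GCGNGGGCG, the site of the Egr factors, on either strand. The Efna3 window is chr3:89322940-89323189 and the Efna4 window chr3:89338029-89338278, both on the minus strand and written 5′ to 3′ along the gene.
Efna3: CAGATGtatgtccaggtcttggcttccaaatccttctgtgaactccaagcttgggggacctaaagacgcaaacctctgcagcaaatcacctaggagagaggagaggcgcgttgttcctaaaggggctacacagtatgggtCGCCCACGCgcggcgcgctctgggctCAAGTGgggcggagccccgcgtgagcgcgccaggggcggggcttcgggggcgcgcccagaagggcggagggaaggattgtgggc
Efna4: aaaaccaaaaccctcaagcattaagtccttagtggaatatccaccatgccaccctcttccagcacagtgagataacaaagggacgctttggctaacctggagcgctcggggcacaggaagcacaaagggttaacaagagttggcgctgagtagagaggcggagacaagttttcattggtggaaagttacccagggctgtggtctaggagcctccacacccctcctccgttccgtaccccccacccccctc
The Efna3 window held 2 E-boxes (CAGATG and CAAGTG) and 1 Egr match (CGCCCACGC, on the other strand), and the Efna4 window neither. Of 27025 windows of the same length in the RefSeq table, 66.0% held an E-box and 4.65% an Egr match. A match is a string of letters, not a bound site.

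Efna3 had signals of 168, 178 and 185 at E11.5, 273, 210.4 and 236 at E12.5, and 345, 255 and 250.5 at E14.5. The E11.5 arrays were the lowest and close together. The rise was 0.66 ± 0.16 from E11.5 to E14.5 (adjusted p = 0.00964), and it was not called without the letter A arrays (adjusted p = 0.0573) or with quantile normalization (0.0886). Its neighbour Efna4 had signals of 1683, 1099 and 1607 at E11.5, 1609, 1306 and 1513 at E12.5, and 871, 851 and 971 at E14.5. Here E11.5 and E12.5 overlapped and all E14.5 arrays were lower. Efna4 fell by 0.68 from E11.5 (SE 0.18, adjusted p = 0.0137) and by 0.71 from E12.5 (SE 0.18, adjusted p = 0.0201). The calls were lost without the letter A arrays (adjusted p = 0.110 and 0.128), the former also without array A of E11.5 (0.0518), the latter also without array A or C of E12.5 or A or B of E14.5 (up to 0.0720). Efna1, the other neighbour, had means of 329.6 ± 131, 320.4 ± 44.5 and 437 ± 134 (SD, n = 3), a change of 0.44 ± 0.29 (adjusted p = 0.264).

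Efna5, a repellent for axons and the ephrin-A gene with the largest rise, had signals of 1142, 1728 and 1450.0 at E11.5, 1617, 1865 and 2060.5 at E12.5, and 3235, 2405 and 2952 at E14.5. The E14.5 arrays lay above all others. Efna5 rose by 1.0 ± 0.19 from E11.5 (adjusted p = 0.00255) and by 0.63 ± 0.19 from E12.5 (adjusted p = 0.0401). The first call was lost with median centring alone (adjusted p = 0.0743), the second also without the letter A arrays (0.181) and without array C of E11.5, any array of E12.5, or array A or C of E14.5 (up to 0.130), with no filter (0.0745) or with the mean of probe sets (0.0638). Efna2, which was among the genes that fell, had signals of 2172, 1526 and 1773 at E11.5, 1776, 1465 and 1643 at E12.5, and 1273, 1272 and 1201 at E14.5. All E14.5 arrays were below the rest and E12.5 overlapped E11.5. Efna2 fell by 0.53 on the log2 scale from E11.5 to E14.5 (SE 0.15, adjusted p = 0.0209), and the call was lost without array A of E11.5 or C of E14.5 (adjusted p up to 0.0741) and without the letter A arrays (0.106).

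Of the ephrin-B genes, whose proteins also signal back into the cell that carries them, Efnb2 was called. Its signal was 3994, 3585 and 3360.1 at E11.5, 4233, 4075 and 3626 at E12.5, and 4313, 5029 and 5441 at E14.5. The lowest E14.5 array was not far above the highest of E11.5 and E12.5. The rise of 0.43 ± 0.14 from E11.5 (adjusted p = 0.0336) was lost without array B or C of E11.5, B of E12.5, or B or C of E14.5 (adjusted p up to 0.108) and with the mean of its probe sets (0.110). Efnb1, the ligand gene whose loss disturbs cell sorting in the skeleton, had all E14.5 arrays below all E11.5 arrays (827, 929 and 937 against 967, 1038 and 1127). The change of -0.22 ± 0.12 was not called (adjusted p = 0.181). Its other probe sets went the other way, by 0.09 ± 0.20 and 0.27 ± 0.18, and were not called either. Efnb3 had means of 1345 ± 119, 1471 ± 43.8 and 1366 ± 80.9 (SD, n = 3; change 0.02 ± 0.12, adjusted p = 0.894).

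Among the receptors of the ephrins, 1 of 5 tested EphA genes and 1 of 4 EphB genes rose and none fell, shares near the 22.9% of all tested genes that rose. Epha3, which encodes a receptor of the ephrin-A proteins, had signals of 645, 1969.5 and 1028 at E11.5, 1897, 2103 and 2342 at E12.5, and 2117, 3020.2 and 2862 at E14.5. At E11.5 array B was far above A and C and lay within the range of E12.5, while E14.5 lay above all of E11.5. The rise from E11.5 to E14.5 was 1.27 ± 0.34 (adjusted p = 0.0155). It ranged from 0.89 without array A of E11.5 to 1.69 without array B of E11.5 and was not called without array B of E14.5 (adjusted p = 0.0512) or with no filter (0.0550). Without array B of E11.5 the step to E12.5 was called as well (1.37, adjusted p = 0.0308).

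Ephb1, a receptor of the ephrin-B proteins, had signals of 137, 151 and 206 at E11.5, 189, 292 and 213 at E12.5, and 207, 414 and 289.8 at E14.5. The highest array of E11.5 and the lowest of E14.5 were almost equal. Ephb1 rose by 0.85 ± 0.27 (adjusted p = 0.0329), a call lost without array A or B of E11.5 or B or C of E14.5 (adjusted p up to 0.108) and with no filter (0.0878). Of the others of its class, Ephb4, which marks veins, had means of 913 ± 226 and 903 ± 28.6 (SD, n = 3) at E11.5 and E14.5 (change 0.01 ± 0.19, adjusted p = 0.964). Ephb3 was at 1851 ± 369.5 and 1752 ± 104 (-0.06 ± 0.16, adjusted p = 0.785). Ephb6, which has no kinase activity of its own, was at 221 ± 83.6 and 254 ± 75.3 (0.22 ± 0.30, adjusted p = 0.587).

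Epha4, the receptor that steers motor axons in the limb, was not called, with means of 3384 ± 291 at E11.5, 3313 ± 645 at E12.5 and 3176 ± 1179 at E14.5 (SD, n = 3; change -0.16 ± 0.27, adjusted p = 0.668). Its E14.5 arrays were spread from 1963 in A to 4317 in C. Epha7 was at 2537 ± 502, 2435 ± 234 and 2740.0 ± 768 (0.09 ± 0.23, adjusted p = 0.792). Epha2 had a lower mean at E12.5 (81.9 ± 33.1) than at E11.5 (114 ± 50.9) or E14.5 (175 ± 72.6), and its change of 1.1 ± 0.42 from E12.5 to E14.5 was not called (adjusted p = 0.0877). Epha1, Epha6, Epha8 and Epha10 were not tested. Their highest signals were 119.8, 71.1, 103 and 44.4.

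Epha5 was not called on the probe set that stood for the gene, but was on others. That probe set read 84.7, 162 and 76.9 at E11.5, 89.0, 162 and 120.2 at E12.5, and 121, 164 and 232 at E14.5, with overlap between all stages (change 0.71 ± 0.34, adjusted p = 0.127). A second read 61.0, 47.6 and 76.9 at E11.5, 90.7, 85.3 and 85.1 at E12.5, and 272, 187 and 284 at E14.5. Its 3 stages did not overlap, and in a fit of all 20892 tested probe sets it rose by 2.01 ± 0.22 (adjusted p = 0.00025), which was called under the 17 alternatives run on probe sets too. None of its E11.5 arrays exceeded the filter of 90.6, so it was tested through its later arrays and had to differ. Another rose by 1.45 ± 0.31 (adjusted p = 0.00812), with means of 67.7 ± 30.8 at E11.5, 54.5 ± 12.52 at E12.5 and 176 ± 33.3 at E14.5, and was lost without the letter A arrays (adjusted p = 0.0801). The remaining probe set was at or below 50.3 in every array and was not tested. With the mean of its probe sets Epha5 was called as higher at E14.5 than at E11.5 and than at E12.5 (0.99). In the gene fit without array B of E11.5 it was called as higher at E14.5 than at E11.5 too (1.04).

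Over all genes of the families, 59 of 83 probe sets were tested, and 16 were called higher and 4 lower at E14.5 than at E11.5, against 31.2% called over all tested probe sets. In Ntng1 and Unc5b both tested probe sets were called, in the same direction. The second of Ntng1 rose by 1.56 ± 0.33 (adjusted p = 0.00688) and the second of Unc5b fell by 1.13 (SE 0.24, adjusted p = 0.00759). In Slit2, 2 of 3 were called. In Dcc and Epha3 1 of 3 was, and in Neo1 1 of 5. In Epha7 1 of 4 rose, from a mean of 134.6 to 263 (0.98 ± 0.26, adjusted p = 0.0190), a call lost without the letter A arrays, array A or B of E11.5 or array B or C of E14.5, and with median centring (adjusted p up to 0.0968). Probe sets of a gene can read different transcript ends or splice forms, and which ones these read was not examined.

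**Figure D3:**
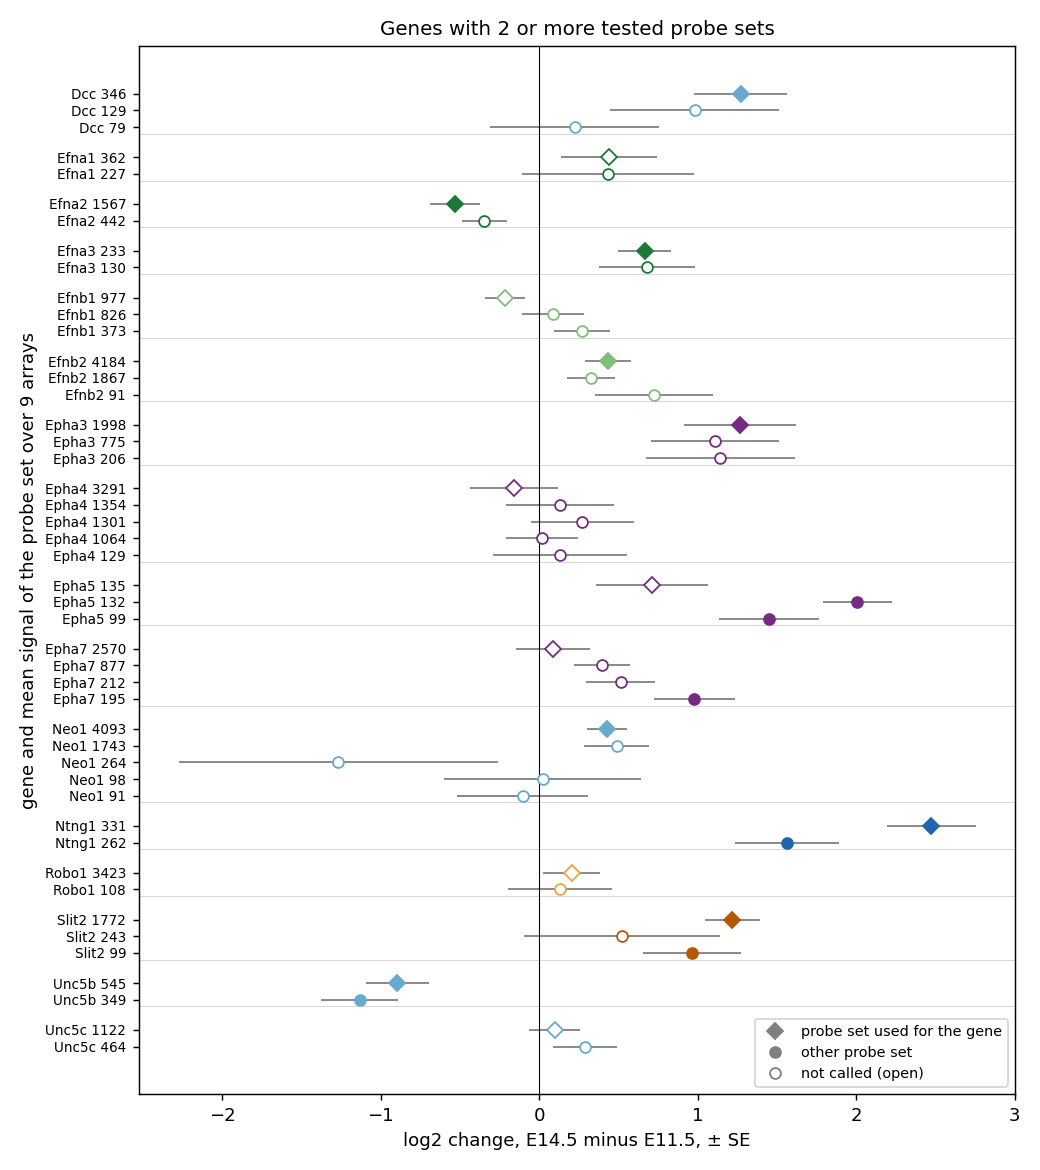
Log2 change from E11.5 to E14.5 with bars of 1 SE for every tested probe set of the 16 guidance genes with more than 1; the number beside each gene is the probe set's mean signal over the 9 arrays, diamonds are the probe sets that stood for the genes and filled symbols are called. The Epha5 diamond (0.71) is open while its other tested probe sets are filled at 2.01 and 1.45, and all of Ntng1 and Unc5b are filled.

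Slit2 was the Slit gene that rose. It encodes a secreted repellent that acts through Robo1 and Robo2. Its signal was 925, 1387 and 1076 at E11.5, 1434, 1829 and 1531 at E12.5, and 2581, 2637 and 2546 at E14.5. The stages did not overlap, and the E14.5 arrays lay within a narrow range. Slit2 rose by 1.22 ± 0.17 over the interval (adjusted p = 0.0005) and by 0.70 ± 0.17 from E12.5 to E14.5 (adjusted p = 0.0167). The second call was lost without array A or C of E12.5 (adjusted p up to 0.0630), without the letter A arrays (0.0885) and with the mean of its probe sets (0.222). The first was lost with that mean (0.90, adjusted p = 0.0541). Its window of 250 bases before the start, chr5:47982905-47983154 on the plus strand, is shown because it is 1 of 3 windows of called guidance genes with the Egr letters, beside Efna3 and Efna5.
Slit2: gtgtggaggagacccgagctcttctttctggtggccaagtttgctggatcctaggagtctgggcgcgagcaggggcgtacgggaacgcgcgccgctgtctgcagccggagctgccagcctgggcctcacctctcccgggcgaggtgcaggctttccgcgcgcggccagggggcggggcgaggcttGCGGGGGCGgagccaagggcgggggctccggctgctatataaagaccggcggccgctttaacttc
The match is GCGGGGGCG and the window has no E-box. Of the 14 called genes, 12 had an entry in the RefSeq promoter table. Of these, 2 (Efna3 and Efnb2) held an E-box and 3 an Egr match, where 66.0% and 4.65% of all 27025 windows did. The difference was not tested. The windows of the 12 had 54.0% to 83.2% G and C.

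Slit3 was at 358 ± 20.6, 305 ± 32.9 and 394 ± 109.5 (SD, n = 3; change over the interval 0.10 ± 0.20, adjusted p = 0.723), and Slit1, with a highest signal of 88.5, was not tested. Of the Robo receptor genes, Robo1 had means of 3169 ± 311, 3403 ± 319 and 3696 ± 793 (0.20 ± 0.18, adjusted p = 0.392). Robo2 was uneven, with 213, 609 and 700.1 at E11.5, 82.5, 352 and 327 at E12.5, and 54.7, 129 and 459 at E14.5. Array A was the lowest of each stage, and the stages overlapped. Its change of -1.60 ± 0.82 was not called (adjusted p = 0.147). It was called in the blocked fit (adjusted p = 0.0070), with median centring (0.00504) and without array C of E14.5 (-2.42, adjusted p = 0.0336). The letters were used in the blocked fit but not in the main fit, and between E11.5 and E14.5 the B arrays did not correlate (r = -0.00513). The A (0.313) and C (0.238) arrays did. Robo3, a receptor of crossing axons, and Robo4, an endothelial receptor, reached 86.4 and 103 and were not tested.

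At E12.5 no guidance gene was called against the midpoint of E11.5 and E14.5 in the unblocked limma fit, where 0.769% of all tested genes were. Of the 29, 2 had an unadjusted p under 0.05. The midpoint is the mean of the outer stages, and E12.5 is not halfway between them in time. A straight course over time was not tested. Unc5d, whose rise came early, was 0.96 ± 0.27 above the midpoint of E11.5 and E14.5 (adjusted p = 0.185). In the blocked fit it was called (adjusted p = 0.0178).

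Further genes of the same signalling systems were read from lists. Of 15 listed binding partners 14 were tested, and 3 rose and 1 fell from E11.5 to E14.5, 28.6% against 40.5% of all tested genes (median log2 change 0.02, against 0.0034 over all). Flrt2, whose protein binds Unc5 receptors and is a ligand of Unc5d, rose from signals of 1339, 2532 and 1509.7 at E11.5 to 4286, 5393 and 5474 at E14.5 (1.54 ± 0.23, adjusted p = 0.00073). Its relative Flrt1 rose by 1.38 ± 0.23 (adjusted p = 0.00142). Dag1, which encodes dystroglycan, a matrix receptor that also binds Slit, rose by 0.84 ± 0.15 (adjusted p = 0.00198). Draxin, a secreted repellent that binds Dcc and netrins, went from 253, 259 and 214 at E11.5 to 110.3, 102 and 110.5 at E14.5, and fell by 1.16 (SE 0.16, adjusted p = 0.00041). The calls of Flrt1, Flrt2 and Draxin held under all 18 alternatives and that of Dag1 was lost with median centring (adjusted p = 0.170).

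Of 47 listed cytoplasmic effectors, which link the receptors to the small GTPases and the actin skeleton, 39 were tested. Of these 6 rose and 4 fell (25.6%, against 40.5% of all tested genes, median log2 change -0.03). Srgap3, a GTPase-activating protein of the family that binds Robo, rose from 323, 292 and 427 to 979, 938 and 979 (1.49 ± 0.15, adjusted p = 8.3e-05; 0.70 with the mean of probe sets). Fyn, a Src-family kinase downstream of Dcc and of the ephrins, rose from 626, 582 and 606 to 1209.9, 1477 and 1465 (1.19 ± 0.13, adjusted p = 0.00015). Vav3, a guanine nucleotide exchange factor recruited by Eph receptors, rose by 1.06 ± 0.23 (adjusted p = 0.00539; 0.71 with the higher floor, and lost with median centring, 0.0753). No E11.5 array of Vav3 exceeded the filter, so it was tested through later arrays and had to differ. Chn1, which encodes the Rac inhibitor chimaerin used by Epha4, fell by 0.90 (SE 0.22, adjusted p = 0.00963), a call lost with the mean of probe sets (-0.49, adjusted p = 0.0898). The other called members were Itsn2, Pak3 and Dapk1, which rose, and Vav2, Tiam1 and Crkl, which fell; all 6 were lost under at least 2 alternatives.

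**Figure D4:**
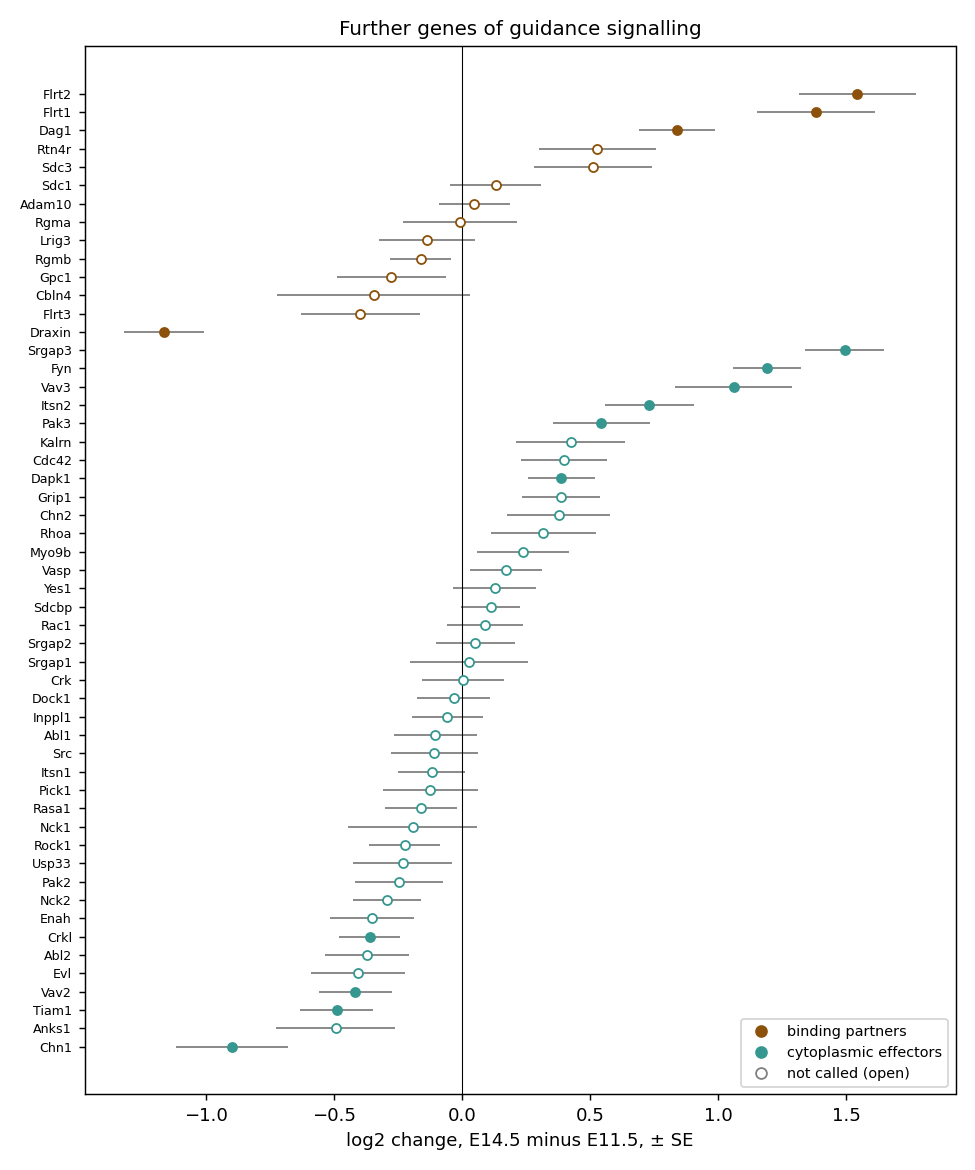
Log2 change from E11.5 to E14.5 with bars of 1 SE for the tested binding partners (brown) and cytoplasmic effectors (green) of guidance signalling; filled points are called. Flrt2 (1.54) and Draxin (-1.16) lie at the ends of the first list, Srgap3 (1.49) and Chn1 (-0.90) at the ends of the second, and most points are open.

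Several of these genes are also used by vessels and nerves, so markers of both were read in the same arrays. Of 12 endothelial markers 5 were tested, and 4 of those (Cdh5, Emcn, Kdr and Tek) were called as higher at E14.5 than at E11.5, where 22.9% of all tested genes were. Cdh5, Emcn and Tek had no E11.5 array above the filter and entered the test through later arrays, so they had to differ. The summed signal of the 12 was 550 to 901 at E11.5, 694 to 1016 at E12.5 and 1538 to 1754 at E14.5. None was at the floor of signal in all arrays, but Tie1 exceeded it only in array A of E11.5 (27.3). Pecam1 and Flt1 were under it in several arrays. Tek alone went from 50.3, 55.6 and 46.9 at E11.5 to 320.0, 466 and 735 at E14.5. The endothelial receptor gene Robo4 did not pass the filter, and Unc5b, which has a known role in blood vessels, fell. Which cells either signal came from was not tested.

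Of 10 neural and Schwann cell markers 8 had a probe set and 5 were tested. From E11.5 to E14.5 Ngfr and Stmn2 rose and Tubb3 fell (60% called, against 40.5% of all tested genes). The summed signal of the 8 was 1152 to 1337 at E11.5, 1815 to 1912 at E12.5 and 1976 to 2288 at E14.5. Ngfr alone had means of 306 at E11.5, 619 at E12.5 and 1097 at E14.5. Stmn2, Fabp7 and Foxd3 also had higher means at E14.5 than at E11.5, and Tubb3, Erbb3, Sox10 and Elavl4 lower ones. The sum for cartilage markers was 15543 to 18490 at E11.5 and 24081 to 29508 at E12.5. At E14.5 it was 73760 in array A but 17485 and 8445 in B and C; Acan alone read 5409, 554 and 185 in these arrays. Of the 10 cartilage markers 6 were called as higher at E14.5 than at E11.5, against 22.9% of all tested genes. Of 11 skeletal muscle markers 5 rose and 1 fell (54.5% called, against 40.5% of all tested genes). Their sums were 4128 to 6733 at E11.5 and 9662 to 12686 at E14.5. Of 8 epidermal markers 6 were tested, and 4 rose and 1 fell (83.3% called, against the same 40.5%). Of 9 blood markers with a probe set 3 were tested, and 1 rose and 1 fell (66.7% called, against the same 40.5%). Among the markers called as higher, Cytl1, Hapln1, Pax7, Cdh1, Cldn4, Csf1r and the tendon marker Tnmd had no E11.5 array above the filter and were tested through later arrays. The part of these other cells in the changes of the guidance genes was not tested.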

How the data were processed

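Sorted Scx-GFP-positive forelimb cells were measured on 9 arrays, 3 per stage. The authors deposited 1 intensity per probe set and array, the MAS5 signal, made in Affymetrix Expression Console 1.1 according to the submitters' processing notes. The mean of each array without its lowest and highest 2% was 500, and no further scaling was applied. Of 45101 probe sets, 34958 had 1 gene symbol in the platform annotation, updated through gene identifiers to RefSeq symbols; each gene took the probe set whose mean log2 signal over all arrays was highest, one with the suffix _x_at only where it had no other. Signals under 22.7, the 25th percentile of all, were set to that floor. A gene was tested where at least 3 of 9 arrays exceeded 90.6, the median of all signals.

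limma 3.58.1 in R 4.3.3 fitted 1 mean per stage (6 residual degrees of freedom), with two-sided contrasts, an F-test and Benjamini-Hochberg adjustment over 11576 genes. A gene in 1 of the 3 stage comparisons called at adjusted p under 0.05 was named with every array; from each list of further genes, up to 4 called genes with the largest change were named, and the remaining called effectors, named without values, were chosen after their values were seen. The members and lists were chosen with earlier results of these data known. The main fit was tried on simulated data for the comparison of E14.5 with E11.5 only. The simulated noise was independent between arrays, so deviations shared by a letter were not covered.

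Deviations from the stage means correlated between arrays of the same letter (A, B, C) with r of 0.520, 0.133 and 0.332 for E11.5 and E12.5, 0.310, 0.121 and 0.289 for E12.5 and E14.5, and 0.313, -0.00513 and 0.238 for E11.5 and E14.5. The main fit did not use the letters in any comparison, and they entered as a block only as an alternative. What a letter stands for is not given in the sources used here. No 2 arrays were identical, and the number of arrays limits the precision.

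Alternatives were no floor, a higher floor at 90.6, no filter, quantile normalization, median centring, the mean of a gene's probe sets, the letter as a block, a trended and robust prior, and leaving out the letter A arrays or each array in turn. Promoter windows are the 250 bases before the first listed start in the RefSeq table (GRCm38.p6); 34 of the 39 genes had an entry. Protein sequences were not used here.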

Additional observations from a re-analysis of the deposited data

How the results depend on the processing

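With 3 arrays per stage, small changes are near the threshold and many calls move. Under all 18 alternatives Unc5d kept its calls against E11.5 at both later stages, Ntng1 both of its calls at E14.5, and Unc5b its fall from E11.5. Unc5d had no E11.5 array above the filter, so it was tested through its later arrays and had to differ. In the called genes other than Unc5d, Ntng1 and Unc5b at least 1 alternative ended the call. The 1 reversal was Neo1, at -0.088 from E11.5 to E14.5 with the mean of probe sets. That mean includes a weaker probe set at -1.27 (SE 1.01).

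The 14 guidance genes called between E11.5 and E14.5 became 7 with median centring, 9 without the letter A arrays and 9 to 14 with 1 array left out. The 6 called between E12.5 and E14.5 became 1 with median centring, 2 without the letter A arrays and 1 to 6 with 1 array left out. The 1 called between E11.5 and E12.5 became 2 with a higher floor, quantile normalization, the trended and robust prior or without the letter A arrays, and 1 to 2 with 1 array left out. The 10 called by the F-test became 4 with median centring, 5 without the letter A arrays and 7 to 9 with 1 array left out. The 20 called probe sets became 11 with median centring, 9 without the letter A arrays and 11 to 20 with 1 array left out. No guidance gene was called against the midpoint with any 1 array left out (0). The cause of these moves was not tested.

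With the letters as a replicate block, 3 guidance genes were called between E11.5 and E12.5 (Dcc, Ntng1 and Unc5d). In that fit 1 was called against the midpoint (Unc5d), and Robo2 was called lower at E14.5 than at E11.5. The pairing changed no other call of a guidance gene in the stage comparisons.

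Over all genes, the 411 called between E11.5 and E12.5 became 182 with no filter, 177 with median centring, 167 with the mean of probe sets, 249 without the letter A arrays and 125 to 486 with 1 array left out. The 2542 called between E12.5 and E14.5 became 912 with median centring, 1084 without the letter A arrays and 1564 to 2599 with 1 array left out. The 4692 called between E11.5 and E14.5 became 2341 with median centring and 3856 to 4537 with 1 array left out.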
